A study of Mus musculus with 6 samples.

Results

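The genes described here are 34 genes of the cell cycle and of DNA replication, chosen by their symbols from the 23224 genes measured in mouse liver. All 34 were present in the deposited table. They comprise 7 genes that act in G1, 11 that act in S phase and 16 that act from G2 to the end of mitosis. RNA came from whole, frozen and ground liver of 35 week old mice. The mice either had a germline loss of PKM2 (PKM2 KO), a splice form of pyruvate kinase, which catalyses the last step of glycolysis, or were wild type (WT). Each genotype was represented by 3 independent mice, and both share a C57BL/6J x 129SvJ background and received no treatment. The labels give neither sex, litter nor batch, and they do not say whether a liver held a tumour or how the PKM2 allele was made. The contrast asks how liver transcripts differ where PKM2 is missing in every cell.

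A cell commits to division in G1, when D-type cyclins and their kinase partners relieve the RB proteins' hold on E2F transcription factors. E2F then switches on the replication machinery, and a later wave of mitotic genes, controlled by the DREAM and MuvB complexes together with FOXM1, is switched on in G2. Adult hepatocytes are mostly quiescent and often polyploid, and they re-enter the cycle when liver mass is lost. RNA of dividing cells in a whole liver can come from hepatocytes or from blood, immune, endothelial and stromal cells. In bulk tissue, a lower share of dividing cells and less RNA per dividing cell cannot be told apart.

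The late cell cycle genes are commonly recognised by a promoter element called CHR, here searched as TTTGAA, often near boxes with the letters CCAAT that are bound by NF-Y. Replication genes often carry E2F elements, searched here as TTGGCGC or TTGCCGC and as TTCGCGC or TTCCCGC. Of the 34 genes, 26 had a RefSeq promoter on GRCm38.p6, a window of 300 bases from 250 before to 50 after the start. Both strands were searched and overlapping matches were allowed, so that 1 E2F stretch can match on both strands. CHR was found in 9 of 12 mitotic genes, in 1 of 10 S phase genes and in 0 of 4 G1 genes, while 17.9% of all 32851 promoters held it. The CCAAT box was found in 11 of 12 mitotic, 8 of 10 S phase and 1 of 4 G1 genes, against 37.4% of all promoters. An E2F element was found in 3 of 12 mitotic, 6 of 10 S phase and 0 of 4 G1 genes, against 9.57% of all promoters. These matches describe letters in a window and not bound sites.

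**Figure D1:**
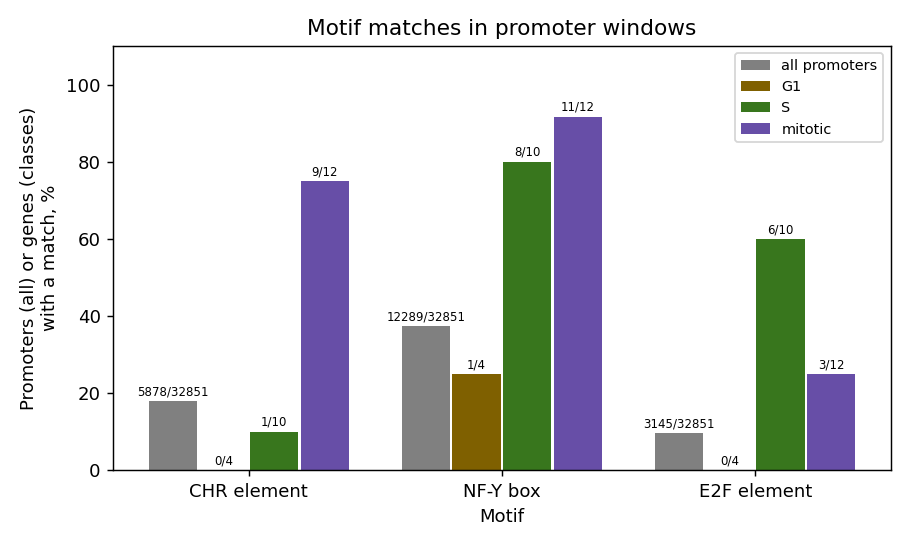
Share of promoter windows (y axis, percent) that hold a CHR element, an NF-Y box or an E2F element (x axis), for all promoters and for the genes of each class, with the counts above the bars. The CHR element was found in 9 of 12 mitotic genes and the E2F element in 6 of 10 S phase genes.

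The 200 bases before the start of 6 genes named in the results are shown, and a link between these letters and the levels was not tested. Mcm6, Mcm3 and Cdk4 are 3 of the genes whose genotypes did not overlap, and Cdk1, Ube2c and Top2a are mitotic genes that were high together in 1 liver. Capitals mark matches to CHR, CCAAT and E2F letters on either strand, and coordinates are those of GRCm38.p6.
Mcm6 (chr1:128359706-128359905, minus strand): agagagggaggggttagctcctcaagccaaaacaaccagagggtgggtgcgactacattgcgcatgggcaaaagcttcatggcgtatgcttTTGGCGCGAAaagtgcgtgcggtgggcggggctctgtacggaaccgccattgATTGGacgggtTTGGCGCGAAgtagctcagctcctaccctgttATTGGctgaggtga
Mcm3 (chr1:20820313-20820512, minus strand): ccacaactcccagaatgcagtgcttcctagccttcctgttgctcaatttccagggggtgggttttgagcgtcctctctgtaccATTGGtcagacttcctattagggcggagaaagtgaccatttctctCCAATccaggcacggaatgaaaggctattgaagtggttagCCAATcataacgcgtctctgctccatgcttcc
Cdk4 (chr10:127063335-127063534, plus strand): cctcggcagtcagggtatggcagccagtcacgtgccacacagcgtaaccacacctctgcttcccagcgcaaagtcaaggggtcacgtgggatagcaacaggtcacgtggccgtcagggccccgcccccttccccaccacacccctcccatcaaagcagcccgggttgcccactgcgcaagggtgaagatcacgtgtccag
Cdk1 (chr10:69352913-69353112, minus strand): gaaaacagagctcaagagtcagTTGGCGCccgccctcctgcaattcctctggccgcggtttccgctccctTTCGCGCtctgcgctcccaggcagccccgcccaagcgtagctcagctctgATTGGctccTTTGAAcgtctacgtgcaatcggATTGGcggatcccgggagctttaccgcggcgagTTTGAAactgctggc
Ube2c (chr2:164769729-164769928, plus strand): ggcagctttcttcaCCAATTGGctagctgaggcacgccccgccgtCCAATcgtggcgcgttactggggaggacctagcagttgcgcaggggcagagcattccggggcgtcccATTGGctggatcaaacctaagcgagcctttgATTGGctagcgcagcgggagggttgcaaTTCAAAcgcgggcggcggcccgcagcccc
Top2a (chr11:99024190-99024389, minus strand): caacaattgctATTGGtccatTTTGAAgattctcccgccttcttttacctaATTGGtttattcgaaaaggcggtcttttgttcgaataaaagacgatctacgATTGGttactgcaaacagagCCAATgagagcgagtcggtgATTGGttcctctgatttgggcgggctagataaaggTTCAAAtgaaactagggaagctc
Within these 200 bases, Mcm6 carries 2 stretches with E2F letters on both strands as well as CCAAT boxes, and Mcm3 carries 3 CCAAT boxes. The E2F matches of Mcm3 begin at bases 20, 40 and 43 after the start, outside the printed stretch. None of the 3 searched motifs was found in the stretch of Cdk4.

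Libraries held 27727048 to 36125711 expected counts, the RSEM estimates of reads per gene. Levels are given as counts per 1000000 (CPM) after TMM scaling between livers, and values in a sentence follow replicates 1 to 3 of each genotype. In these libraries 1 count was worth 0.0271 to 0.0357 CPM. The targeted gene, listed under its older symbol Pkm2 with 1 row for the gene and none per splice form, ranged from 6.31 to 9.645 CPM with PKM2 KO and from 15.9 to 26.6 CPM in the WT mice (log2 fold change -1.47, adjusted p = 0.314 in edgeR's quasi-likelihood test). Of the 8 hepatocyte markers, 8 were tested and Alb, the gene of serum albumin, was at 45640 to 82560 CPM. WT 1 and WT 2 stood apart by pancreatic acinar transcripts, with 12 markers summing to 3141 and 9014 CPM against 32 to 60.5 CPM in the other 4 livers.

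Across the cell cycle genes as a whole, no gene passed the adjusted threshold. Of the 34 genes, 32 passed the filter on low counts, with Aurkb and Bub1 below it, and 17 of the 32 had a fold change above 0 (53.1%, against 47.6% of all 13058 genes tested). None of the 32 passed an adjusted p of 0.05 in edgeR's quasi-likelihood test, where 0.023% of all genes did, and none passed with DESeq2, where 0.743% did. An unadjusted p under 0.05 was reached by 3 of the 32 genes with edgeR and 3 with DESeq2 (9.38% with either, against 7.24% of all genes with edgeR and 7.22% with DESeq2). With edgeR, Mcm6 and Ccne2 were the 2 on the higher side, where 2.87% of all genes lay, and Cdk4 was the 1 on the lower side, where 4.37% lay. For 4 of the 32 genes no PKM2 KO liver lay within the range of the WT livers or the reverse (12.5%, against 12.1% of all genes). These were Ccne2, Mcm3 and Mcm6 on the higher side, with 5.8% of all genes, and Cdk4 on the lower side, with 6.27%. The median log2 fold change of the 32 was 0.07, against -0.01 over all genes. The shares of the 32 genes were thus near those of all genes.

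**Figure D2:**
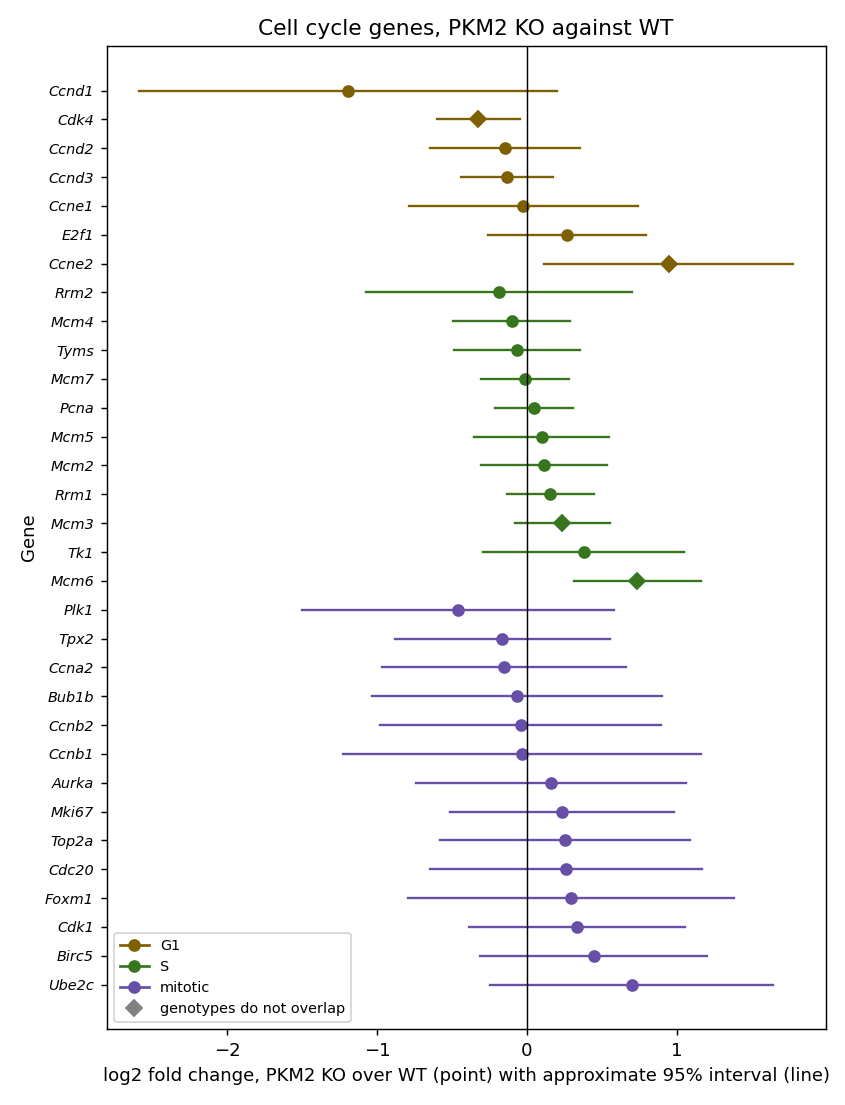
Log2 fold change of PKM2 KO over WT (x axis) for the 32 tested cell cycle genes (y axis), coloured by class, with approximate 95% intervals as lines. Diamonds mark the 4 genes whose genotypes did not overlap, which are Cdk4 below 0 and Ccne2, Mcm3 and Mcm6 above 0, and the intervals of the mitotic genes all span 0.

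Among the G1 genes, no member passed the adjusted threshold, and the largest estimated difference came from a single liver. Ccnd1 encodes cyclin D1, the D-type cyclin that rises when hepatocytes leave quiescence. It measured 12, 9.29 and 13.4 CPM in the PKM2 KO mice and 12.3, 11.4 and 55.5 CPM in the WT mice. WT 3 thus stood 4.13-fold above the next highest liver, while the other 5 livers lay between 9.29 and 13.4 CPM and the genotypes overlapped. The log2 fold change was -1.19 (SE 0.596, adjusted p = 0.735 in edgeR) with all livers and -0.03 without WT replicate 3. Ccnd1 shares 818 exon bases with LTO1 on the opposite strand, measured under its older symbol Oraov1. Oraov1 was at 8.37 to 10.3 CPM with PKM2 KO and 10.5 to 11.9 CPM in the WT mice, and its part in the Ccnd1 value was not tested. Among the 11066 tested genes whose mean count reached 50, Ccnd1 ranked at place 30 by the ratio of the highest liver to the next, and at place 5 among the 2208 genes that were highest in WT 3. The summed mitotic transcripts of WT 3 were 12.8 CPM, with an exact Poisson 95% interval of 11.7 to 14 CPM that covers counting error only. This sum lay below the 19.3 CPM of PKM2 KO 1 and above the 10.8 to 11.45 CPM of the remaining livers.

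The other D-type cyclins showed no such liver. Ccnd3, which encodes cyclin D3 and has the highest mean count of the G1 class, measured 29.9, 26.1 and 30.6 CPM in the PKM2 KO mice and 35.6, 32.3 and 27.1 CPM in the WT mice. Its log2 fold change of -0.13 had an approximate 95% interval of -0.44 to 0.18. Ccnd3 shares 361 exon bases with Bysl on the opposite strand, which was at 15.3 to 19.7 CPM with PKM2 KO and 12.9 to 19.6 CPM in WT. The part of Bysl in the Ccnd3 value was not tested. Ccnd2 lay between 6.44 and 11.4 CPM in all livers, with a log2 fold change of -0.15. Per kilobase of annotated exons, a scale that depends on the annotation used, Ccnd3 had the highest level of the 3 in PKM2 KO, at 11.8 ± 0.994 CPM per kb (SD, n = 3) against 3.09 ± 0.562 for Ccnd1 and 1.19 ± 0.2 for Ccnd2. In WT 3 alone the order of the first 2 was turned, with 14.8 CPM per kb of Ccnd1 and 11.1 of Ccnd3.

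Cdk4, the kinase partner of the D-type cyclins, was lower in every PKM2 KO liver than in any WT liver. It measured 22.6, 20.1 and 26.1 CPM in the PKM2 KO mice and 27.9, 29.7 and 28.65 CPM in the WT mice. The means were 23 ± 3 and 28.75 ± 0.896 CPM (SD, n = 3), a log2 fold change of -0.32 (SE 0.119, adjusted p = 0.648 in edgeR). The exons of Cdk4 share 641 bases with those of Tspan31 on the opposite strand, and no source used here says whether counting used the strand. Tspan31 was far more abundant, with means of 205.9 ± 16.5 CPM for PKM2 KO and 241.8 ± 24 CPM for the WT mice (SD, n = 3, log2 fold change -0.23, adjusted p = 0.763), and its part in the Cdk4 value was not tested.

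Ccne2 encodes cyclin E2, which activates CDK2 at the start of S phase. It measured 2.72, 1.68 and 1.64 CPM in the PKM2 KO mice and 1.29, 0.6225 and 1.22 CPM in the WT mice. The genotypes did not overlap, and the means of 2.013 ± 0.613 and 1.042 ± 0.365 CPM (SD, n = 3) gave a ratio of 1.93 (log2 fold change 0.95, SE 0.355, adjusted p = 0.653 in edgeR). WT 3 was the only WT liver without high acinar transcripts, and the part of these transcripts in the Ccne2 value was not tested. PKM2 KO 1 was the highest and WT 2 the lowest liver, and the log2 fold change was 0.68 when either of them was left out. The exons of Ccne2 share 336 bases with Ints8 on the opposite strand, which was more abundant, at 13.8 ± 2.17 CPM with PKM2 KO and 14.75 ± 1.1 CPM in the WT mice (SD, n = 3), and its part in the Ccne2 value was not tested. Its paralog Ccne1, cyclin E1, ranged from 0.963 to 2.25 CPM with PKM2 KO and from 1.46 to 1.79 CPM in the WT mice, a log2 fold change of -0.02 with an approximate 95% interval of -0.79 to 0.74. E2f1, the activating E2F factor, ranged from 3.98 to 5.06 CPM with PKM2 KO and from 2.68 to 4.5 CPM in the WT mice, with overlap.

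**Figure D3:**
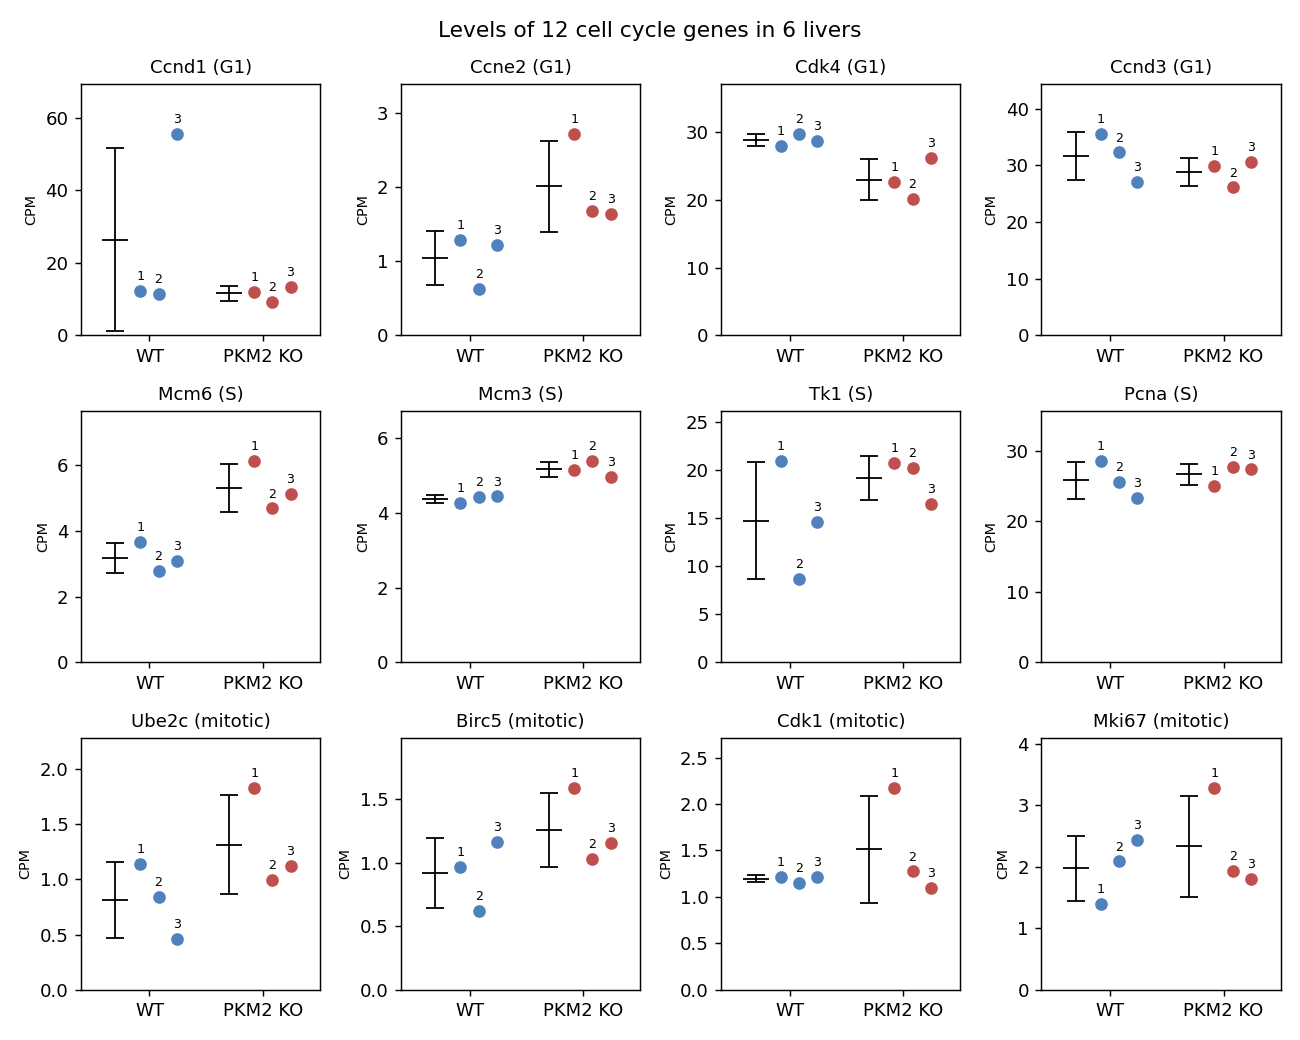
Level in CPM (y axis, from 0) of 12 cell cycle genes in each liver, with WT in blue, PKM2 KO in red, replicate numbers above the points and mean ± SD as black bars. Ccnd1 is high in WT 3 alone, at 55.5 CPM, and the PKM2 KO points of Mcm6, Mcm3 and Ccne2 lie above and those of Cdk4 below the WT points.

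Of the 11 S phase genes, 7 had fold changes above 0, with a median log2 fold change of 0.10, which ran from 0.04 without PKM2 KO replicate 3 to 0.17 without WT replicate 1. Mcm6 had the smallest p among them. MCM6 is a subunit of the MCM2-7 helicase, a ring of 6 different proteins that is loaded on origins in G1 and unwinds DNA in S phase. Mcm6 measured 6.13, 4.69 and 5.135 CPM in the PKM2 KO mice and 3.68, 2.8 and 3.085 CPM in the WT mice. Every PKM2 KO liver lay above every WT liver. WT 1 and WT 2, which held the acinar transcripts, were the highest and the lowest WT liver, and the part of these transcripts was not tested. The means were 5.32 ± 0.737 and 3.189 ± 0.449 CPM (SD, n = 3), a ratio of 1.67 (log2 fold change 0.74, SE 0.183, approximate 95% interval 0.31 to 1.17). Its p was 0.00433, the smallest of the 32 genes, but its adjusted p was 0.566 in edgeR and 0.131 in DESeq2. Leaving out single livers gave log2 fold changes of 0.63 to 0.86.

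The estimates for the other subunits of the ring were smaller. Mcm3 measured 5.13, 5.38 and 4.95 CPM in the PKM2 KO mice and 4.25, 4.42 and 4.44 CPM in the WT mice. These groups did not overlap either, but the ratio was 1.18 (log2 fold change 0.24, SE 0.135, adjusted p = 0.763 in edgeR). For Mcm2, Mcm4, Mcm5 and Mcm7 the genotypes overlapped and the log2 fold changes ran from -0.10 to 0.12. The difference between Mcm6 and the other subunits was not tested. Per kilobase of exons, Mcm6 had the lowest level of the 6 subunits in WT, at 0.729 ± 0.103 CPM per kb (SD, n = 3), with Mcm5 at 0.863 ± 0.119 as its neighbour. This order rests on the exon lengths used, since in CPM the WT mean of Mcm6, 3.189, lay above the 2.984 of Mcm5. In PKM2 KO Mcm6 lay between Mcm5 at 0.924 ± 0.115 and Mcm4 at 1.49 ± 0.165, with 1.22 ± 0.168 CPM per kb. Mcm7 had the highest level in both genotypes, at 3.8 ± 0.0464 and 3.83 ± 0.479 CPM per kb, although its exons share 385 bases with Ap4m1 and Cops6 on the opposite strand.

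Pcna encodes the sliding clamp of the replicative polymerases and has the highest mean count of the S phase class. It measured 25, 27.7 and 27.4 CPM in the PKM2 KO mice and 28.55, 25.55 and 23.35 CPM in the WT mice, with a log2 fold change of 0.05 and an approximate 95% interval of -0.21 to 0.31. Among the enzymes of deoxynucleotide supply, the fold changes of Tk1 and Rrm2 depended on which WT livers were kept. Tk1, the thymidine kinase of S phase, measured 20.7, 20.2 and 16.5 CPM in the PKM2 KO mice and 20.9, 8.715 and 14.6 CPM in the WT mice. WT 2 was thus the low liver. The log2 fold change was 0.38 with all livers (adjusted p = 0.819 in edgeR), 0.11 without WT 2 and 0.72 without WT 1. The exons of Tk1 share 83 bases with Afmid on the opposite strand. Afmid was more abundant, at 110.4 to 142.6 CPM with PKM2 KO and 88.7 to 146.1 CPM in the WT mice. Afmid too was lowest in WT 2 and highest in WT 1, and its part in the Tk1 value was not tested. Rrm2, the small subunit of ribonucleotide reductase and described here after its values were seen, measured 7.99, 7.96 and 5.135 CPM in the PKM2 KO mice and 13.2, 4.98 and 5.84 CPM in the WT mice. WT 1 was the high liver, and the log2 fold change was -0.19 with it and 0.38 without it. The large subunit gene Rrm1 ran from 10.75 to 11 CPM in PKM2 KO and from 8.56 to 10.9 CPM in WT. Tyms, which makes thymidylate, ran from 9.6 to 10.95 CPM in PKM2 KO and from 8.4 to 13.4 CPM in WT.

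**Figure D4:**
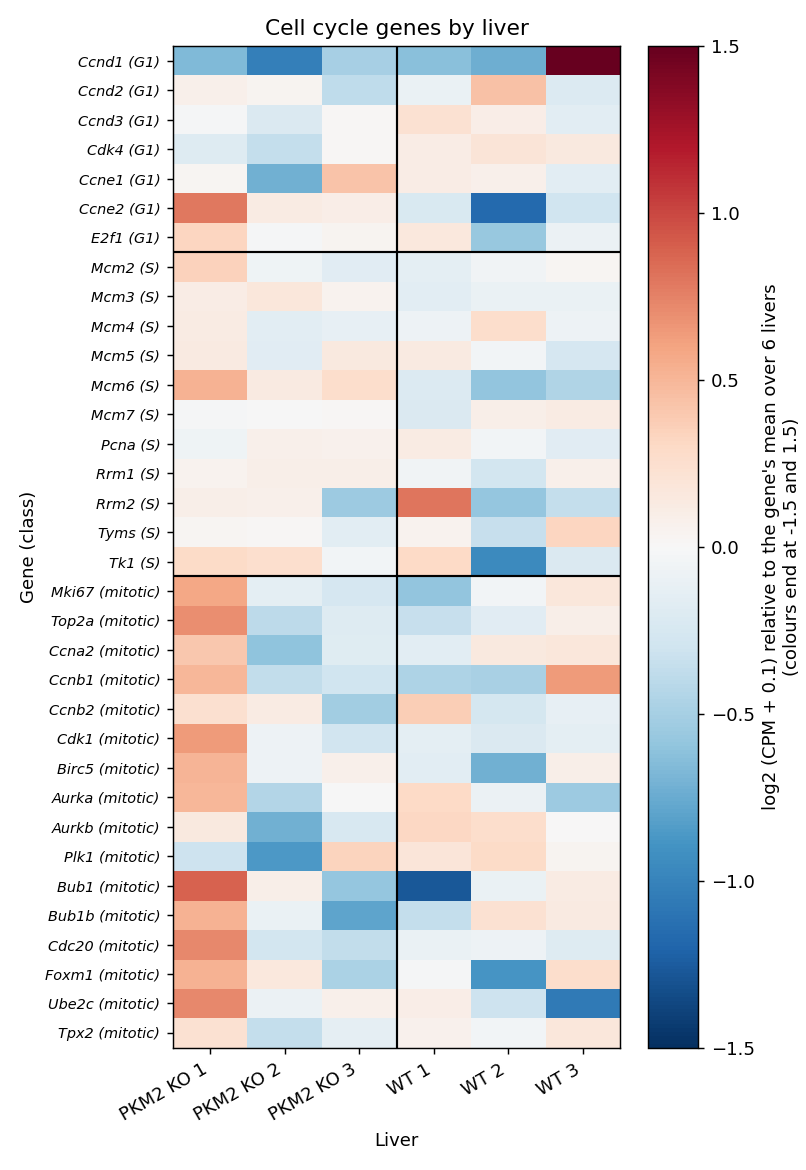
Log2 level of each of the 34 genes (rows, by class) in each liver (columns) relative to the gene's own mean over the 6 livers, with a pseudocount of 0.1 CPM. The mitotic genes are mostly red in PKM2 KO 1, most S phase genes stay pale, apart from Tk1, low in WT 2, Rrm2, high in WT 1, and Mcm6, and Ccnd1 is red in WT 3 alone.

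The mitotic genes were low in every liver, and PKM2 KO 1 stood apart from the other livers of both genotypes. PKM2 KO 1 held the highest value of 12 of the 16 mitotic genes and of 11 of the 14 tested ones (78.6%), against 10.8% of all genes tested and 17.2% of the 3059 tested genes with a mean under 100 counts. The 16 genes together gave 561 counts in PKM2 KO 1 and 320 to 474 counts in the other livers. Their summed level was 19.3 CPM in PKM2 KO 1 (exact Poisson 95% interval 17.8 to 21), and 10.8 and 10.9 CPM in PKM2 KO 2 and PKM2 KO 3. In WT livers 1 to 3 it was 11.4, 11.45 and 12.8 CPM, so that 2 of the PKM2 KO livers lay below all WT livers and 1 above them. The intervals of PKM2 KO 2 and PKM2 KO 3, at 9.68 to 12 and 9.84 to 12.1 CPM, held the values of WT 1 and WT 2 but not that of WT 3. Such intervals cover counting error only. The ratio of PKM2 KO 1 to the median of the other 5 livers had a median of 1.59 over the 16 genes and was above 1 for 15 of them, with Plk1 at 0.643.

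Mki67, which encodes the proliferation antigen Ki-67 and has the highest mean count of the class, measured 3.27, 1.93 and 1.79 CPM in the PKM2 KO mice and 1.39, 2.085 and 2.435 CPM in the WT mice. Cdk1, the kinase that drives entry into mitosis, measured 2.17, 1.27 and 1.09 CPM in the PKM2 KO mice and 1.215, 1.15 and 1.22 CPM in the WT mice. Ube2c, the ubiquitin-conjugating enzyme of the anaphase-promoting complex, measured 1.83, 0.9945 and 1.12 CPM in the PKM2 KO mice and 1.14, 0.84 and 0.46 CPM in the WT mice. In all of these PKM2 KO 1 was the highest liver, and the PKM2 KO and WT livers overlapped. The exons of Ube2c share 592 bases with Tnnc2 on the opposite strand, which was also highest in PKM2 KO 1, at 3.17 CPM against 0 to 1.62 CPM elsewhere, and its part in the Ube2c value was not tested. Birc5, which encodes survivin of the chromosomal passenger complex, measured 1.585, 1.03 and 1.155 CPM in the PKM2 KO mice and 0.965, 0.6225 and 1.16 CPM in the WT mice. The log2 fold changes with all livers were 0.23 for Mki67, 0.34 for Cdk1, 0.70 for Ube2c and 0.45 for Birc5, with adjusted p from 0.767 to 0.924 in edgeR.

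Fold changes above 0 were found for 8 of the 14 tested mitotic genes, with a median log2 fold change of 0.20. Without PKM2 KO replicate 1 they were found for 3 of 15, and the median was -0.22. Cyclin genes of this class were near 0 with all livers, at -0.15 for Ccna2, -0.03 for Ccnb1 and -0.04 for Ccnb2. Top2a, the topoisomerase that untangles replicated DNA, was at 0.25, and Foxm1, the transcription factor of the G2 wave, at 0.30. The spindle kinase Aurka was at 0.16, the checkpoint kinase Bub1b at -0.07 and Cdc20, an activator of the anaphase-promoting complex, at 0.26. The kinase Plk1 was at -0.46 and Tpx2, a spindle assembly factor that binds Aurka, at -0.16. Without single livers Plk1 ran from -0.97 (without PKM2 KO replicate 3) to -0.145 (without PKM2 KO replicate 2) and Tpx2 from -0.36 (without PKM2 KO replicate 1) to -0.01 (without PKM2 KO replicate 2). Approximate 95% intervals of these genes were wide, for example -0.52 to 0.98 for Mki67 and -1.23 to 1.16 for Ccnb1. Aurkb had 4 to 11 counts per liver and Bub1 0 to 10 counts, too few for the test. Ccna2 shares 378 exon bases with Exosc9 on the opposite strand. Exosc9 was more abundant than Ccna2, at 8.42 to 11 CPM with PKM2 KO and 9.61 to 11.95 CPM in the WT mice. Its part in the Ccna2 value was not tested.

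**Figure D5:**
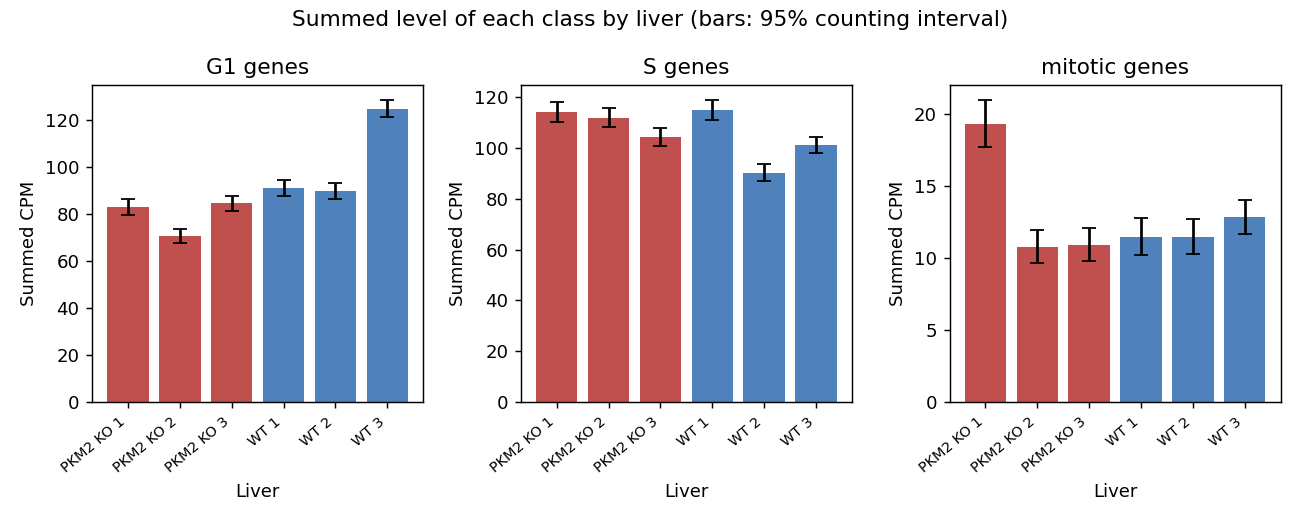
Summed CPM (y axis, from 0) of the G1, S phase and mitotic genes in each liver (x axis), with PKM2 KO in red, WT in blue and exact Poisson 95% intervals that cover counting error only. WT 3 is highest for G1 genes through Ccnd1, and PKM2 KO 1 is highest for mitotic genes at 19.3 CPM.

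Genes outside the 34 that act in the spindle, kinetochore and cytokinesis were also often highest in PKM2 KO 1. Of 36 tested genes of this list 14 were (38.9%), against the 10.8% of all genes and 17.2% of those with low counts given above. WT 3 was highest for 10 of the 36 (27.8%), between its shares of all genes (21.8%) and of those with low counts (31.8%). Markers of other cells also differed between these livers. The 8 markers of stellate cells and fibroblasts summed to 112.3 CPM in PKM2 KO 1 and to 109 in WT 3, against 50 to 87.3 CPM in the other livers. They include Col3a1 at 23.9 CPM in PKM2 KO 1 and 10.8 to 23.4 CPM elsewhere, and none was at 0 in all livers. Lrat went another way, with its highest level of 32.29 CPM in PKM2 KO 2, ahead of WT 3 at 26.35 and PKM2 KO 1 at 19.74. PKM2 KO 1 was highest for 4 of the 8 stellate cell and fibroblast markers, WT 3 for 3 and PKM2 KO 2 for 1. The 10 erythroid markers, of which Hba-a1 was at 855 CPM in PKM2 KO 1 and 314 to 741.3 CPM elsewhere, summed to 1202 CPM in PKM2 KO 1 and 605.2 to 1100 CPM in the others. Alas2 was highest in WT 1, at 204.7 CPM against 175.8 CPM in PKM2 KO 1, which was highest for 3 of the 8 tested erythroid markers. Macrophage and Kupffer cell markers, none of which passed the adjusted threshold, had 12 of 12 fold changes below 0 and sums of 394.8 to 445.1 CPM against 492.6 to 548.6 CPM in WT. Of these 12, 5 lay without overlap on the lower side. Over all genes, 47.6% had fold changes above 0 and 6.27% lay without overlap on the lower side. T and NK cell markers summed to 17.2 to 21.2 CPM with PKM2 KO and to 19.5 to 23 CPM in the WT mice, a sum carried by Zap70 at 12.5 to 17.75 CPM. Of the 9 tested genes of that list 7 had fold changes below 0, with a median log2 fold change of -0.88. On the lower side 5 of the 9 did not overlap between genotypes, against the same 6.27% of all genes. Neutrophil markers had 6 of 6 fold changes below 0, of which 3 did not overlap, and summed to 5.31 to 6.61 CPM with PKM2 KO against 8.4 to 18.3 CPM in the WT mice. None of the T and NK cell or neutrophil markers passed the adjusted threshold either. The part of these cells in the mitotic transcripts was not tested.

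Among regulators of the same pathway, no gene of any list passed the adjusted threshold in edgeR. In the list of RB, E2F and MuvB regulators, 10 of 17 tested genes had fold changes above 0, and the 2 genes with the smallest p went opposite ways. E2f2, an activating E2F factor, measured 2.205, 2.98 and 2.16 CPM in the PKM2 KO mice and 1.29, 1.4 and 1.14 CPM in the WT mice, without overlap. Its log2 fold change was 0.94 (SE 0.229, adjusted p = 0.566 in edgeR). E2f8, an atypical repressor that acts in the polyploidisation of mouse hepatocytes, measured 1.69, 1.55 and 2.86 CPM in the PKM2 KO mice and 3.29, 4.95 and 4.275 CPM in the WT mice. The genotypes again did not overlap, and the log2 fold change was -1.03 (SE 0.287, adjusted p = 0.566 in edgeR).

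Of the CDK inhibitors, 5 of 8 were tested, and Cdkn2c at -0.43 and Cdkn1a, the p53 target p21, at 0.17 on the log2 scale had the smallest p (0.351 and 0.512, unadjusted, in edgeR). Other cyclins and kinases were balanced, with 7 of 14 above 0, and were led by Cks1b, a CDK subunit, at 0.62 (adjusted p = 0.681 in edgeR) and Cdk6 at 0.41. For origin licensing and firing 11 of 15 were above 0, with the origin recognition subunit Orc5 at 0.40 and without overlap (adjusted p = 0.566 in edgeR) and the helicase cofactor Gins3 at 0.56. For polymerases and fork proteins 18 of 26 were above 0, with Rpa1, a subunit of the single-strand binding protein, at 0.31 and the fork protein Timeless at -0.60, highest in WT 2 at 4.79 CPM, with WT 3 at 3.3 CPM above the 2.13 to 2.825 CPM of the PKM2 KO mice. The medians of these last 2 lists were 0.07 and 0.09, against -0.01 for all genes.

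Of 13 nucleotide synthesis genes 8 were above 0, with Ppat of purine synthesis at 0.26 and Impdh2 at -0.25. Of the 36 spindle and kinetochore genes 21 were above 0, with securin, encoded by Pttg1, at 0.33 and the cytokinesis motor gene Kif23 at -0.74. Subunits and partners of the anaphase-promoting complex had 10 of 14 above 0 and lay between -0.26 (Ube2s) and 0.18 (Fzr1). Of 12 growth signal genes 5 were above 0, led by Tgfa, a ligand of the EGF receptor, at 0.38 without overlap (adjusted p = 0.609 in edgeR) and Mycn at 1.59, whose livers overlapped. Of 9 markers of liver tumours and fetal liver 2 were above 0, and the 2 with the smallest p were Prom1 at -0.97 and Epcam at -1.81, both of which are also genes of bile duct and progenitor cells. Epcam was high in WT 2 alone, at 4.82 CPM, while WT 1 at 0.75 and WT 3 at 0.622 CPM lay near the 0.456 to 0.6545 CPM of the PKM2 KO mice. Prom1 was at 1.28 CPM in WT 2, 0.893 in WT 1 and 0.595 in WT 3, against 0.373 to 0.547 CPM in the PKM2 KO mice. WT 2 and WT 1 were also the livers with acinar transcripts, whose part in the Prom1 and Epcam values was not tested. Genes without overlap between genotypes numbered 3 of 17 RB regulators, 3 of 14 other cyclins and kinases, 1 of 15 origin genes and 1 of 26 fork genes. They numbered 1 of 13 nucleotide genes, 3 of 36 spindle genes, 2 of 12 growth signal genes and 1 of 9 tumour and fetal markers. None was found among 14 genes of the anaphase-promoting complex and 5 CDK inhibitors, and the share over all genes was 12.1%.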

How the data were processed

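The authors deposited 1 table of expected counts per gene and liver, made per the submitters' processing notes with Bowtie 1.0.1 and RSEM 1.2.12 on the build mm9. Neither the annotation nor the strand setting was given in the sources used here. Per the file, expected counts carry no scaling between libraries.

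Expected counts were rounded and filtered with filterByExpr, leaving 13058 genes, in R 4.3.3. Genotypes were compared over all 6 livers with TMM scaling and edgeR 4.0.16's quasi-likelihood test, adjusted by Benjamini-Hochberg over all genes at 0.05. Each SE was taken as the size of the log2 fold change over the root of F, and intervals use the fit's degrees of freedom. The same code was tested on simulated data. DESeq2 1.42.0 and limma 3.58.1 (voom) served as alternatives. No pair of livers agreed within sampling noise. Exon lengths and overlaps came from GENCODE on GRCm38, not the authors' annotation.

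Genes and lists were chosen with earlier results of these data known. Levels in every liver are given for the 3 smallest p and the highest mean count in each class, and for genes without overlap. Other lists are named by their 2 smallest p. Plots used matplotlib 3.10.9.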

Additional observations from a re-analysis of the deposited data

How the results depend on the processing

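None of the 32 tested cell cycle genes passed the adjusted threshold under any of the 15 alternatives. Over all genes, 3 passed in the main analysis, 5 without a filter, 97 with DESeq2, 5 with limma voom, 6 with robust quasi-likelihood, 7 with a replicate block and 3 to 51 without single livers, the 51 being reached without WT replicate 1 and without WT replicate 3. Livers of the same replicate number had correlations of deviations from the genotype mean of -0.05, 0.03 and -0.09. With 3 livers per genotype these cannot show whether livers of the same number shared a litter or batch. With the replicate block, 2 of the 32 genes kept an unadjusted p under 0.05 in edgeR. Without single livers, the mitotic median ran from -0.219 (without PKM2 KO replicate 1) to 0.277 (without PKM2 KO replicate 2), and the G1 median from -0.174 (without PKM2 KO replicate 3) to 0.013 (without WT replicate 2). With at least 1 CPM in at least 3 livers, which left 5 mitotic genes, the mitotic median was 0.333. Signs near 0 turned for Ccne1 (0.002) and Mcm7 (0.01) with library totals only, and for Ccnb1 with limma voom (0.017) and the replicate block (0.023). Of 471 alternative values, 439 kept sign and side and 32 changed sign. Without single livers, signs turned within -0.266 to 0.083 for Ccnd2, -0.327 to 0.247 for Ccne1, -0.051 to 0.221 for Mcm2, -0.187 to 0.027 for Mcm4, -0.106 to 0.055 for Mcm7, -0.015 to 0.134 for Pcna, -0.433 to 0.382 for Rrm2 and -0.226 to 0.109 for Tyms. Among mitotic genes the ranges were -0.081 to 0.419 for Mki67, -0.176 to 0.472 for Top2a, -0.493 to 0.085 for Ccna2, -0.433 to 0.602 for Ccnb1, -0.219 to 0.219 for Ccnb2, -0.006 to 0.525 for Cdk1, -0.142 to 0.421 for Aurka, -0.485 to 0.24 for Bub1b, -0.22 to 0.479 for Cdc20 and -0.017 to 0.628 for Foxm1. The causes were not tested. Counts of the mitotic genes were low, and p-values rest on the spread between 3 livers per genotype, moderated by the spread of all genes tested.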
